A study of Mus musculus with 2 samples.

Results

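The genes described here encode the proteins of the cytosolic ribosome. They were all gene symbols of the matrix that name a protein of the small subunit (Rps), the large subunit (Rpl), the stalk (Rplp) or the laminin receptor homologue Rpsa, without pseudogenes and S6 kinases, and with at least 50 unique molecular identifiers (UMIs, each standing for 1 captured transcript) in the whole matrix. Of 32285 measured genes, 80 symbols matched and 79 met the minimum: 31 of the small and 48 of the large subunit, 3 of the latter in the stalk. Rpl39l, with 78 UMIs, stood just inside the minimum. Rpl10l, with 0 UMIs, was the only symbol outside it.

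CD45+ immune cells were sorted from enzyme-digested mouse skin and profiled by droplet-based single-cell RNA sequencing of transcript 3′ ends. One tagged sample was control skin at day 0, and the other was skin at day 2 after challenge with diphenylcyclopropenone (DPCP), a contact sensitiser. Strain, sex, age and the number of mice behind each tag are not given in the sources used here. With 1 sample per condition no difference has a replicate check, so no test was made, and the 95% intervals below cover counting error only.

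Each ribosomal protein occupies a defined place in one of the subunits, and most are present once in a ribosome. Their mRNAs are among the most abundant of a mammalian cell, and they belong to the TOP class, which begins with a cytosine and a run of pyrimidines through which growth signals set their translation. Mature neutrophils are known to carry little RNA and few ribosomes, while monocytes that enter inflamed tissue are transcriptionally active.

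Windows of 15 bases on each side of the annotated start are given for members on which the results below turn, whether or not they show such a run. The sequences are RefSeq's on build GRCm38.p6, 5′ to 3′ on the strand of the gene, with the longest run of C and T in capitals.
Rps9: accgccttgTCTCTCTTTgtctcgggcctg
Rps27: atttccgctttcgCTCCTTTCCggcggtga
Rps18: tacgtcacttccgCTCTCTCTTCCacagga
Rps24: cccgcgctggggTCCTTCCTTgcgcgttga
Rpl12: ggcggagcaggatccgTCTTTTCggctttc
Rpl31: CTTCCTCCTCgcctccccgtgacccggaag
Rpl37a: TTCCgctcgccggtctaaaaccgcgcatgc
Rps28: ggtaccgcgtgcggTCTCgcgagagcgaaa
Rps27l: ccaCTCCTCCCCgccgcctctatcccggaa
Rpl3l: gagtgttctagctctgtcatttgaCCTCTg

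These windows lie at chr7:3704026-3704055 for Rps9, chr3:90213634-90213663 for Rps27, chr17:33955651-33955680 for Rps18, chr14:24490663-24490692 for Rps24 and chr2:32961697-32961726 for Rpl12. The others lie at chr1:39367836-39367865 for Rpl31, chr1:72711245-72711274 for Rpl37a, chr17:33824548-33824577 for Rps28, chr9:66946071-66946100 for Rps27l and chr17:24727811-24727840 for Rpl3l, each across the boundary between promoter and first exon. In Rps9, Rps27, Rps18, Rps24 and Rps28 the run crosses the annotated start, though that of Rps28 has only 4 bases. In the other windows shown it does not cross the start. Rps24, Rps27l and Rpl3l have 2 starts in the table, of which the one with the longer run is shown. In Rpl3l, a paralog of Rpl3 known from muscle, the longest run has 5 bases and lies after the start. Windows were found for 59 of the 79 members. A run of at least 8 C or T in 30 bases was present in 26 of them (44.1%), against 13.9% of 27025 symbols of the table. The letters CTTTC, searched on the strand of the gene and allowed to overlap such a run, were present in 17 (28.8%) against 4.76%. Members with a run of 8 had a median DPCP over control ratio of 0.642 in all kept cells, and the 33 members with a shorter run had 0.653.

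Control skin gave 6280 barcodes and 54397154 UMIs, DPCP skin 7866 barcodes and 53748585 UMIs, and the conditions shared 0 barcode sequences. Filters left 4970 cells in control, with a median of 8803 UMIs, and 7588 in DPCP skin, with a median of 4728.5. More than 10% of UMIs were mitochondrial in 20.8% of the control and 3.53% of the DPCP barcodes, which were left out. Ptprc, which encodes CD45, had a level of 1621 CPM (UMIs scaled to the same total in each group) in control cells and of 2223 CPM in DPCP cells, and the summed level of 5 keratinocyte markers at 8.43 and 6.72 CPM. Cells were gated into classes by marker genes, with 8 classes large enough to compare (at least 50 cells per condition). Each class is called "-like" because the name rests on markers alone. Cells that passed no gate, 2397 control and 725 DPCP cells, held 49.7% of control and 9.98% of DPCP UMIs.

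In all kept cells, ribosomal protein genes took 11.0% of UMIs in control skin and 7.07% in DPCP skin, a ratio of 0.643 (0.642 to 0.644). The classes present differed as well. Neutrophil-like cells, in which the share was lowest, contributed 0.729% of control UMIs and 41.3% of DPCP UMIs. With every class weighted as in control skin, the DPCP share was 9.99%, a ratio of 0.909 (0.907 to 0.911) to the control share. With the weights of DPCP skin the shares were 7.70% in control and 7.07% in DPCP, a ratio of 0.918. Cells without a gate were weighted as 1 class with 49.7% of control UMIs, so composition within them was not held fixed. Cells with 2 gates (4.96%) and those of the smaller gates (4.76%) were each pooled likewise. Of the 79 members, 55 were lower in DPCP cells by at least 1.5-fold with an interval below 1, where 25.2% of all genes were, and 1 was higher (Rpl3l), where 20.7% of all genes were. The median ratio was 0.641 over members and 0.890 over all 14377 genes tested.

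**Figure D1:**
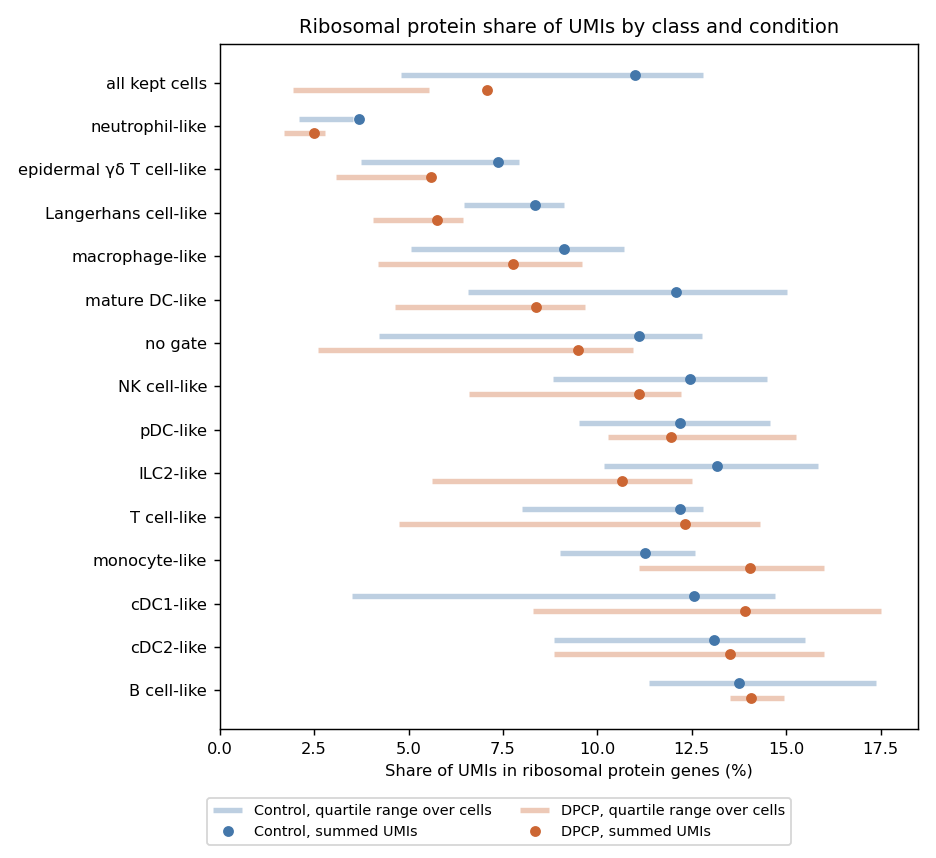
Share of UMIs in ribosomal protein genes (x axis, percent) for all kept cells, 13 marker-gated classes and cells without a gate (y axis), in control (blue) and DPCP skin (orange). Points are shares of summed UMIs and bars the quartile range over cells, which is spread between cells of 1 sample. Neutrophil-like cells lie at 3.69% and 2.50%, far left of the other classes, and monocyte-like cells are higher in DPCP skin.

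In control cells the share ran from 3.69% in neutrophil-like cells through 7.37% in epidermal gamma-delta (γδ) T-like cells, then 8.34% in those like Langerhans cells and 9.11% in macrophage-like cells. Monocyte-like cells held 11.3%, mature dendritic cell (DC)-like cells 12.1%, T cell-like cells 12.2% and type 2 conventional DC (cDC2)-like cells 13.1%. The 5 classes with fewer than 50 cells in a condition are given as levels only. They had control and DPCP shares of 12.6% and 13.9% (cDC1-like), 12.2% and 11.9% (plasmacytoid DC (pDC)-like), 13.2% and 10.6% (group 2 innate lymphoid cell (ILC2)-like), 12.4% and 11.1% (NK cell-like), and 13.8% and 14.1% (B cell-like). The B cell-like values rest on 12 and 10 cells. T cell-like, pDC-like and NK cell-like control cells, at 12.2% to 12.4%, had quartile ranges over cells that overlapped.

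The subunits had like values. The ratio of small to large subunit UMIs in all kept cells was 0.823 in control and 0.844 in DPCP cells. Over the 8 compared classes it ran from 0.767 (DPCP epidermal γδ T-like cells) to 0.895 (DPCP neutrophil-like). Median member ratios were 1.26 for the small and 1.23 for the large subunit in monocyte-like cells, 0.694 and 0.693 in mature DC-like cells, and 0.681 and 0.693 in Langerhans cell-like cells. The stalk members Rplp0, Rplp1 and Rplp2, which recruit elongation factors, had ratios of 1.25 to 1.53 in monocyte-like and 0.636 to 0.818 in Langerhans cell-like cells.

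Levels were uneven between members. UMIs of transcript 3′ ends count each transcript once whatever its length, so CPM of different genes are set side by side without a length correction. Over all kept cells the median member stood at 970 CPM, 63 members lay between 500 and 2000 CPM, and 7 were above 2000 CPM. The 6 most abundant members held 18.499% of all ribosomal protein UMIs. Rps29, a zinc-binding protein of the small subunit head, was highest with 4579 CPM in control and 2818 CPM in DPCP cells. Rpl37a had 4063 and 2300 CPM, Rpl41 (the smallest ribosomal protein) 3679 and 2491 CPM, Rps28 2876 and 1681 CPM, Rps24 2880 and 1554 CPM, and Rps9 2371 and 2113 CPM. Rps9 was the least reduced of these 6, with a ratio of 0.891 (0.884 to 0.898), and Rps24 the most, with 0.540 (0.535 to 0.544). The other members with the lowest ratios were Rpl36 at 0.513, Rpl36a at 0.532 and Rps4x, an X-linked small subunit gene, at 0.556. Apart from Rpl3l and Rpl39l, treated with the paralogs, Rps9 and Rpl37 (0.777) had the highest. These ratios are over all kept cells, so they also carry the change in the classes present. Rps9 and Rpl37 made up their highest share of ribosomal protein UMIs in neutrophil-like cells (5.71% for Rps9). Rps24, Rpl36, Rpl36a and Rps4x made up their lowest there (1.73% for Rps24). The part of class composition in the ratios of single members was not tested.

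Neutrophil-like cells had the lowest shares, 3.69% in 123 control cells and 2.50% in 4499 DPCP cells, a ratio of 0.677 (0.666 to 0.689). The median cell held 76 and 87 ribosomal protein UMIs, of 2789 and 3896 UMIs in all. The size of this ratio rested on few control cells. The 10 control cells of cluster 12, a cluster that marker counts placed with monocytes, held 41.2% of the ribosomal protein UMIs of the control class. Without cluster 12 the shares were 2.80% and 2.25% and the ratio 0.803, and within cluster 0, which held 106 of the control and 1725 of the DPCP cells, they were 2.78% and 2.57%, a ratio of 0.924 (0.903 to 0.945). Clusters 2 and 3, with 1244 and 874 DPCP and 0 control cells of the class, had shares of 1.79% and 2.16%. The 8 monocyte markers summed to 2767 CPM in control and 1329 CPM in DPCP cells of the class, and their part in the result was not tested.

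Among single members, 36 of 78 measured in neutrophil-like cells were lower by 1.5-fold, where 16.1% of all genes were, and 0 were higher, where 7.59% of all genes were. Their median ratio was 0.685, and that of all genes was 0.821. Without cluster 12, 6 were lower (13.3% of all genes) and 1 was higher (7.4% of all genes). The median was then 0.839 over members and 0.820 over all genes, so members as a set were no lower than genes at large. TMM scaling, which moves every neutrophil-like ratio by 0.39 on the log2 scale, left 0 lower. Among the lowest were Rps15 (455 CPM in control, 244 in DPCP, ratio 0.537, 0.461 to 0.628) and Rps28 (873 and 470 CPM, 0.539), and Rpl36a was also among them at 0.544. Rps15 is needed for nuclear export of the small subunit. The highest were Rpl31 at 1.08 (0.787 to 1.52), Rpl3l at 0.99, Rpl4 at 0.916 and Rps2 at 0.912, all with intervals that include 1.

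Of the 8 compared classes, monocyte-like cells had the highest ratio: their share was 11.3% in 231 control cells and 14.0% in 641 DPCP cells, a ratio of 1.25 (1.24 to 1.25). The quartile range over cells was 9.01% to 12.6% in control and 11.1% to 16.0% in DPCP cells, so the ranges overlapped. Of 78 members, 76 had an interval above 1, but few passed 1.5-fold: 4 were higher, where 8.74% of all genes were, and 0 lower, where 9.36% of all genes were. The median was 1.25 over members and 0.99 over all genes. The 4 were Rps20 (1289 CPM in control, 1979 in DPCP, ratio 1.54, 1.48 to 1.599), Rplp0 (1170 and 1796 CPM, 1.53), Rpl10a (675 and 1017 CPM, 1.51) and the rare Rpl3l. Rps24 at 1.02, Rps27 at 1.03 and Rpl38 at 1.05 stayed closest to 1. Rps27l was the only member below 1, at 0.739 (0.683 to 0.8).

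The monocyte-like cells of the conditions sat in different clusters. In control they were split between cluster 5 (107 cells) and cluster 6 (114 cells), and in DPCP 89.9% were in cluster 5. Marker counts placed cluster 5 with monocytes and cluster 6 with macrophages. Cluster 6 held 49.4% of control and 0.156% of DPCP cells of the class, so the class was not alike in the 2 conditions. Within cluster 5 the shares were 11.6% and 14.3%, a ratio of 1.24 (1.23 to 1.25). DPCP cells of the class were deeper (median 12004 against 9117 UMIs), and cells between 2000 and 12000 UMIs gave a ratio of 1.16.

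Macrophage-like cells had 9.11% in 537 control and 7.77% in 230 DPCP cells, a ratio of 0.852 (0.848 to 0.856). Of 77 members 1 was lower by 1.5-fold (Rps27l), where 6.65% of all genes were, and 0 were higher, where 8.98% of all genes were. In all, 70 had an interval below 1. Rpl36 stood at 0.727, Rpl32 at 0.741 and Rpl11, a member that binds the p53 regulator MDM2, at 0.748 (984 CPM in control, 736 in DPCP). Rplp0 at 1.05, Rps9 at 1.05, Rpsa at 1.04 and Rpl8 at 1.01 were highest. The ratio of the class differed between its clusters. In cluster 10 (244 control and 165 DPCP cells) it was 0.948 (0.942 to 0.954), and in cluster 6 (245 and 22 cells) it was 0.558 (0.546 to 0.570), with 65 of 77 members lower by 1.5-fold where 12.4% of all genes were.

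Mature DC-like cells, which express Ccr7 and Fscn1, had 12.1% in 58 control and 8.37% in 122 DPCP cells, a ratio of 0.693 (0.687 to 0.698). Here 27 of 77 members were lower by 1.5-fold, where 9.8% of all genes were, and 0 higher, where 15.7% of all genes were. The median was 0.694 over members and 1.04 over all genes. The lowest ratios were those of Rpl3 (825 CPM in control, 466 in DPCP, 0.565, 0.511 to 0.626), Rpl21 (0.568), Rpl37a (4059 and 2326 CPM, 0.573) and Rpl36 (0.574). In all, 76 members had an interval below 1, among them Rps3 at 0.857, Rpl12 at 0.839 and Rpl35 at 0.833. The exception was Rps27l, with 685 CPM in control and 949 CPM in DPCP cells, a ratio of 1.39 (1.26 to 1.53). Cluster 15 held 94.8% of control and 92.6% of DPCP cells of the class and gave a ratio of 0.694.

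Langerhans cell-like cells, the DCs of the epidermis, had 8.34% in 56 control and 5.76% in 78 DPCP cells, a ratio of 0.691 (0.684 to 0.699). Of 77 members 30 were lower by 1.5-fold, where 16.8% of all genes were, and 1 higher, where 20.1% of all genes were. The members ran from 0.470 to 1.92. Rpl35a had 2564 CPM in control cells and 1205 CPM in DPCP (0.470, 0.439 to 0.503), Rps7 at 0.530 and Rpl30 at 0.534. In contrast, Rpl41 stood at 2247 and 2311 CPM (1.03, 0.967 to 1.09), Rpl12 at 0.932, and Rps2 at 650 and 806 CPM (1.24, 1.11 to 1.39). Rps27l again was highest, with 180 and 347 CPM and a ratio of 1.92 (1.57 to 2.37). DPCP cells of the class were deeper (median 16296.5 against 10224 UMIs), and cells between 2000 and 12000 UMIs gave 0.682. Marker levels moved with the condition in this class. Its own 5 markers summed to 2740 CPM in control and 1932 CPM in DPCP cells, the 10 macrophage markers to 1061 and 3290 CPM, and the 6 ILC2 markers to 465 and 1032 CPM. The 6 mature DC markers summed to 381 and 40.6 CPM, the 7 cDC2 markers to 471 and 143 CPM, and the 8 neutrophil markers to 879 and 2281 CPM. Their part in the result was not tested.

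Epidermal γδ T-like cells had 7.37% in 180 control and 5.60% in 174 DPCP cells, a ratio of 0.759 (0.753 to 0.765). Of 77 members 76 had an interval below 1, and 3 were lower by 1.5-fold (Rps4x at 0.605, Rpl32 at 0.629 and Rpl37a at 0.665), where 7.64% of all genes were. None was higher (0, where 11.3% of all genes were). Rpl4, at 280 and 273 CPM (0.973, 0.855 to 1.11), was the one with an interval that includes 1. Cluster 7 held 97.8% of control and 97.7% of DPCP cells of the class and gave a ratio of 0.711 (0.704 to 0.717). Within it 16 of 77 members were lower by 1.5-fold, where 8.05% of all genes were. Neutrophil marker levels differed between the conditions in this class, and their part in the ratio was not tested. The summed level of S100a8 and S100a9 was 460 CPM in control and 5371 CPM in DPCP cells of the class, and that of all 8 neutrophil markers 585 and 6101 CPM. The 8 monocyte markers summed to 3239 and 1590 CPM and the 7 cDC2 markers to 316 and 107 CPM, and the part of these lists was not tested. Without cells above 19.5 UMIs of S100a8 and S100a9, which removed 1 control and 36 DPCP cells, the ratio was 0.852. With cells of at least 80% own-tag UMIs it was 0.941, and without the 5% of cells with the highest doublet scores 0.882.

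The same 2 genes were also higher in DPCP cells of the other compared classes, for example 523 and 713 CPM in cDC2-like cells and 447 and 3676 CPM in mature DC-like cells. None of the 8 neutrophil markers was at 0 in any class and condition compared. Without cells above the same limit, the ratio was 0.690 in mature DC-like, 0.685 in Langerhans cell-like, 0.857 in macrophage-like and 1.25 in monocyte-like cells.

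cDC2-like cells (709 control and 121 DPCP) and T cell-like cells (85 and 85) differed little in their summed share. Shares were 13.1% and 13.5% in the former, a ratio of 1.03 (1.03 to 1.04), and 12.2% and 12.3% in the latter, a ratio of 1.01 (1.002 to 1.02). Neither direction held under all settings: ratios ran from 0.927 in cluster 4 to 1.07 as a mean over cells for cDC2-like cells, and from 0.953 to 1.096 for T cell-like cells. Both classes changed in their mix of clusters. Cluster 13 held 8.04% of control and 33.9% of DPCP cDC2-like cells, with shares of 15.8% and 16.5%. Cluster 7 held 9.41% of control and 22.4% of DPCP T cell-like cells (8 and 19 cells), with shares of 6.12% and 4.78%. The part of this mix in the ratios was not tested. No member passed 1.5-fold in either class (0 of 77, where 7.49% of all genes were lower and 7.2% higher in cDC2-like cells, and 7.59% and 9.87% in T cell-like cells). In cDC2-like cells Rpl13 was highest (2398 and 2928 CPM, 1.22, 1.18 to 1.26) and Rps27l lowest at 0.843. In T cell-like cells Rps27l (1.37) and Rps19 (1371 and 1714 CPM, 1.25) were highest, and Rpl22, whose paralog Rpl22l1 lies outside the symbols chosen, was lowest at 0.884.

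**Figure D2:**
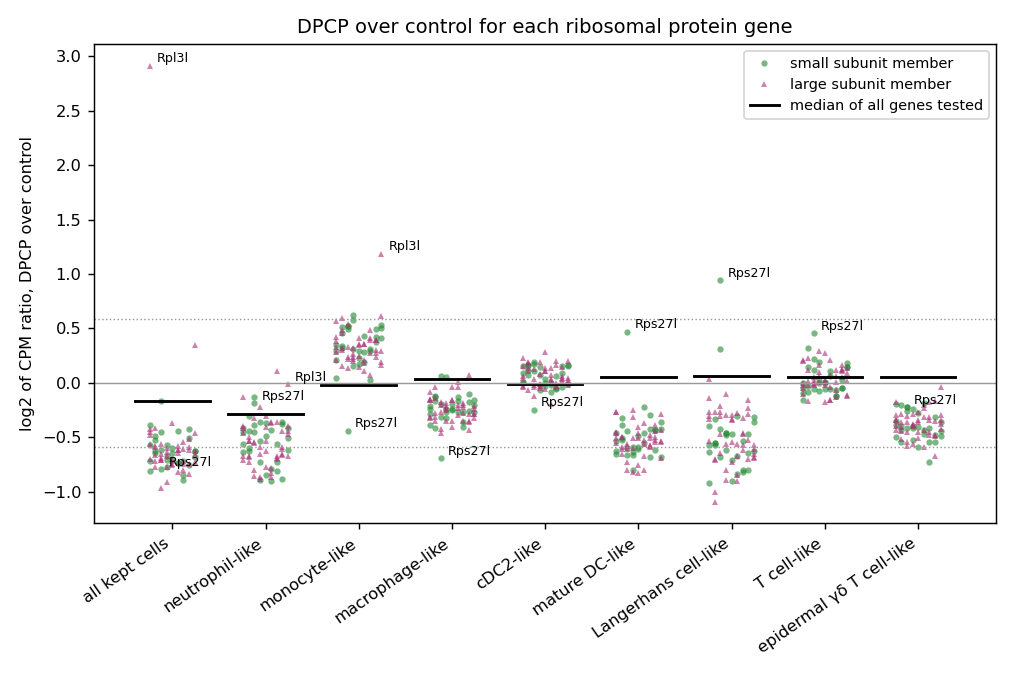
Ratio of CPM in DPCP over control cells, on a log2 axis, for each ribosomal protein gene measured in all kept cells and in 8 classes. Circles are small and triangles large subunit genes, black bars the median of all genes tested, and dotted lines 1.5-fold. Most genes of both subunits lie below the black bar in mature DC-like and Langerhans cell-like cells and above it in monocyte-like cells. Rps27l is on the other side in all 3, and Rps2 is above the bar in Langerhans cell-like cells.

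Across classes, 77 members were measured in all 8. Of these, 58 had an interval below 1 in each of the 5 classes with a lower share, and 57 of the 58 also had an interval above 1 in monocyte-like cells. As shares these were 75.3% and 74.0% of the members, and 2.37% and 1.3% of all 4857 genes measured in the 8 classes. The classes were chosen by the summed share of these same members, so that most members followed it was largely set in advance. The shares over all genes are therefore no like background, and the counts show only how evenly the members moved.

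Within a class, depth and nuclear RNA moved with the share, and their part in the differences between conditions was not tested. The cells above the median depth of their class had the higher share in all 8 classes and both conditions, for example 9.97% against 6.70% in control macrophage-like cells. The cells below the median of Malat1, a nuclear RNA, also had the higher share in each, for example 14.9% against 9.10% in DPCP T cell-like cells. Malat1 itself took 1.57% of control and 2.78% of DPCP UMIs in Langerhans cell-like cells, and 0.783% and 0.670% in monocyte-like cells. Without the cells above the 75th percentile of Malat1 the ratios of these classes were 0.696 and 1.26.

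Apart from the total, the make-up of ribosomal protein RNA differed between classes for a few genes. Each member's share of all ribosomal protein UMIs was compared over 13 classes for the 76 members with at least 50 UMIs in each. The highest class exceeded the lowest by a median of 1.51-fold, by less than 1.5-fold for 36 members and by at least 2-fold for 10.

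Rps9, a small subunit protein close to the mRNA entry channel, varied most. It made up 5.28% (4.92 to 5.67) of ribosomal protein UMIs in control and 5.72% (5.66 to 5.78) in DPCP neutrophil-like cells, against 1.76% to 2.69% in the other 12 classes over both conditions. The 2 conditions of neutrophil-like cells thus lay above all other classes and did not overlap with them. Within that class the share varied by cluster: 6.69% (6.15 to 7.26) in control and 8.90% (8.77 to 9.03) in DPCP cells of cluster 0, 6.88% in cluster 9, 3.67% in cluster 2 and 2.95% in cluster 3. As a level, Rps9 in cluster 0 had 1858 CPM in control cells and 2282 CPM in DPCP cells, within the range of the other classes. In DPCP cells it had 1443 CPM in cluster 9, 656 CPM in cluster 2 and 637 CPM in cluster 3. The last 2 lay below the lowest other class, DPCP epidermal γδ T-like cells at 1186 CPM. The whole class had 1947 CPM in control and 1428 CPM in DPCP cells. The high share was thus one of a low ribosomal protein total, without a level above the other classes. Rps9 lies on chromosome 7 from 3703993 to 3706897, with Tsen34 the nearest annotated gene on the same strand, 2969 bases away.

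Rps27, a zinc-finger protein of the small subunit, also made up its highest share of ribosomal protein UMIs in neutrophil-like cells. It made up 3.79% (3.48 to 4.12) in control and 4.21% (4.16 to 4.26) in DPCP cells of the class, followed by B cell-like cells at 2.92% and 3.52%. The lowest value over both conditions together was 1.93%, in macrophage-like cells. In contrast, Rps18, which encodes a protein of the small subunit head, made up 0.394% in neutrophil-like cells and 0.764% to 0.958% elsewhere, and Rps20 0.834% against 1.22% to 1.98%. Rpl12, a protein at the base of the stalk, was also lowest there, at 0.364%, and highest in B cell-like cells at 0.858%. These are shares and not levels. Rps27 had 1352 CPM in control and 1247 CPM in DPCP cells of neutrophil-like cluster 0. In all kept cells it had 2184 and 1669 CPM. DPCP cells of the class had 798 CPM in cluster 2, 767 CPM in cluster 3, 1010 CPM in cluster 9 and 1900 CPM in cluster 12.

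Rpl31 was set apart in another class. It made up 1.25% (1.12 to 1.38) of ribosomal protein UMIs in 19 control and 1.35% (1.26 to 1.44) in 43 DPCP pDC-like cells, against 0.435% to 0.562% in the other classes with both conditions together. In CPM that was 1521 and 1609, and the highest level elsewhere in the plotted classes was 742 CPM, in DPCP monocyte-like cells. Rpl31 lies on chromosome 1 from 39367842 to 39371911 and overlaps Tbc1d8, which is annotated on the opposite strand.

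Rps19, the gene most often mutated in Diamond-Blackfan anaemia, was highest in mature DC-like cells. Its share there was 2.10% (2.01 to 2.19) in control and 2.43% (2.36 to 2.50) in DPCP cells, and 0.837% to 1.56% in the other classes with both conditions together. Rpsa was also highest in mature DC-like cells, at 2.14%, and lowest in neutrophil-like cells, at 1.02%.

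**Figure D3:**
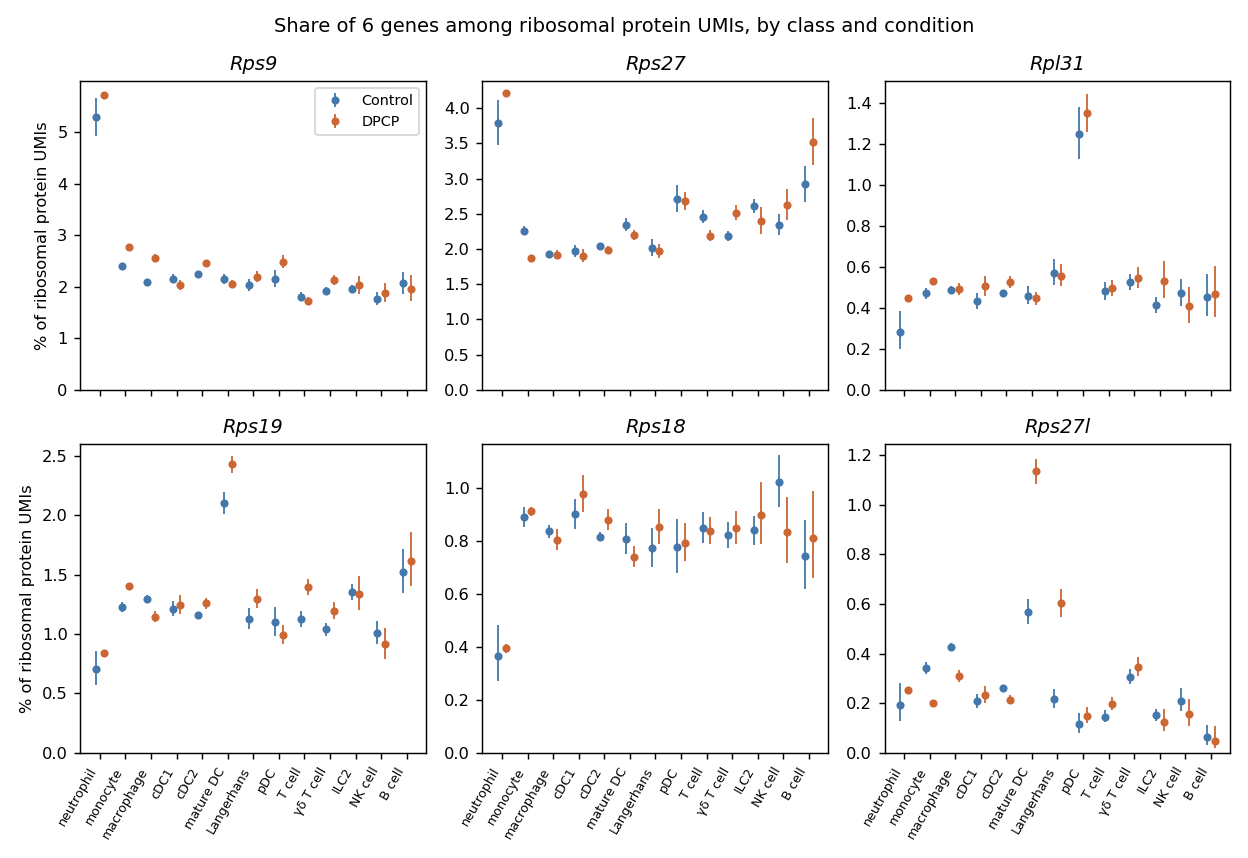
Share of 6 genes among all ribosomal protein UMIs (y axis, percent, each panel with its own scale from 0) in 13 marker-gated classes (x axis), in control (blue) and DPCP cells (orange). Bars are 95% intervals for counting error. Rps9 and Rps27 are high and Rps18 is low in neutrophil-like cells, Rpl31 is high in pDC-like cells, and Rps19 and Rps27l are high in mature DC-like cells.

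The set holds 3 paralogs of core ribosomal protein genes. Rps27l, which resembles Rps27 and is known as a p53 target, lies on chromosome 9 from 66946086 to 66949516 and had 28630 UMIs. It took directions of its own. Its level was 684.7 CPM in control and 948.9 CPM in DPCP mature DC-like cells, the highest of the 13 classes, and its share of ribosomal protein UMIs there was 0.567% (0.519 to 0.618) and 1.13% (1.08 to 1.19). In Langerhans cell-like cells the share was 0.216% (0.180 to 0.258) and 0.602% (0.548 to 0.659). It was lower in DPCP cells among monocyte-like (385 and 284 CPM) and macrophage-like cells (388 and 240 CPM, 0.619, 0.565 to 0.677). B cell-like cells had the lowest share, 0.057% from 17 UMIs. Rps27 itself had ratios of 0.648 in mature DC-like and 0.675 in Langerhans cell-like cells, below 1 like most members.

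Rpl3l, on chromosome 17 from 24727820 to 24736143, had 664 UMIs. Its level was 1.47 CPM (76 UMIs) in control and 11.0 CPM (586 UMIs) in DPCP kept cells, the ratio of 7.53 (5.92 to 9.69) named above. Within neutrophil-like cells it stood at 15.9 CPM (6 UMIs) in control and 15.7 CPM (345 UMIs) in DPCP cells, and within monocyte-like cells at 3.60 and 8.18 CPM (2.28, 1.09 to 5.49). Mature DC-like cells had 2 UMIs in control and 34 in DPCP (16.6 CPM, 11.5 to 23.2). cDC2-like cells had 0 in both conditions, with upper bounds of 0.456 CPM in control and 2.26 CPM in DPCP cells. Msrb1 begins 499 bases downstream of the annotated end of Rpl3l on the same strand. Msrb1 stood at 1894 and 1216 CPM in neutrophil-like cells and at 452 and 805 CPM in monocyte-like cells, but at 55.4 and 175.5 CPM in mature DC-like cells. Whether reads of one were counted to the other was not tested.

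Rpl39l, best known from testis, had 78 UMIs in the matrix. Of the 8 compared classes, the most were in epidermal γδ T-like cells (5 control and 10 DPCP UMIs) and DPCP macrophage-like cells (10 UMIs). Its ratio in all kept cells was 1.27 (0.789 to 2.07), an interval that includes 1.

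Other genes of the translation machinery were described by the same counts. The 6 genes that encode ribosomal proteins or their paralogs but fall outside the symbols chosen (among them Fau, made as a ubiquitin-like fusion, and Rps3a1) had a median ratio of 0.711 in all kept cells, 1.22 in monocyte-like and 0.705 in Langerhans cell-like cells. Fau had 3295 CPM in control cells and 2815 CPM in DPCP kept cells. The 16 elongation and other TOP genes, with Tpt1, Eef1a1 and Rack1 most abundant, had medians of 0.685 in all kept cells, 0.749 in neutrophil-like, 1.26 in monocyte-like, 0.767 in mature DC-like, 0.790 in Langerhans cell-like and 0.835 in epidermal γδ T-like cells. Each lay on the same side of 1 as the median of the ribosomal protein genes. Eef1a1, which brings aminoacyl-tRNA to the ribosome, stood at 2807 and 1763 CPM in mature DC-like cells (0.628, 0.595 to 0.663) and at 2487 and 3030 CPM in monocyte-like cells (1.22).

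The 22 initiation factors had other values. In Langerhans cell-like cells their median was 1.47, with 9 higher and 1 lower by 1.5-fold, where 20.1% and 16.8% of all genes were, while the ribosomal protein median was 0.688. Eif4a1, the helicase of the cap-binding complex, stood there at 191 and 397 CPM (2.08, 1.72 to 2.54) and Eif1 at 598 and 991 CPM (1.66). In neutrophil-like cells the median was 0.939, with 4 higher and 2 lower, where 7.59% and 16.1% of all genes were, and in the other 6 classes it ran from 0.987 to 1.19.

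Genes of ribosome biogenesis, which make and process rRNA, had medians of 0.610 in all kept cells (21 of 31 lower by 1.5-fold, 25.2% of all genes) and 0.757 in neutrophil-like cells, 0.851 in epidermal γδ T-like and 0.9 in mature DC-like cells (12 of 31 measured), but 1.02 in monocyte-like and 1.08 in macrophage-like cells. In Langerhans cell-like cells 18 of 31 were measured, with a median of 1.09. Mitochondrial ribosomal protein genes, which serve the separate ribosome of that organelle, had medians of 0.724 in all kept cells (29 of 78 lower by 1.5-fold, 25.2% of all genes) and 0.804 in neutrophil-like cells. Their medians were 1.17 in mature DC-like (52 of 78 measured) and 1.40 in Langerhans cell-like cells (50 measured), and 0.970 in epidermal γδ T-like cells. Gm42418, a gene model that overlaps ribosomal RNA, took 4.13% of control and 2.40% of DPCP UMIs in all kept cells. It was the most abundant gene of the matrix.

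**Figure D4:**
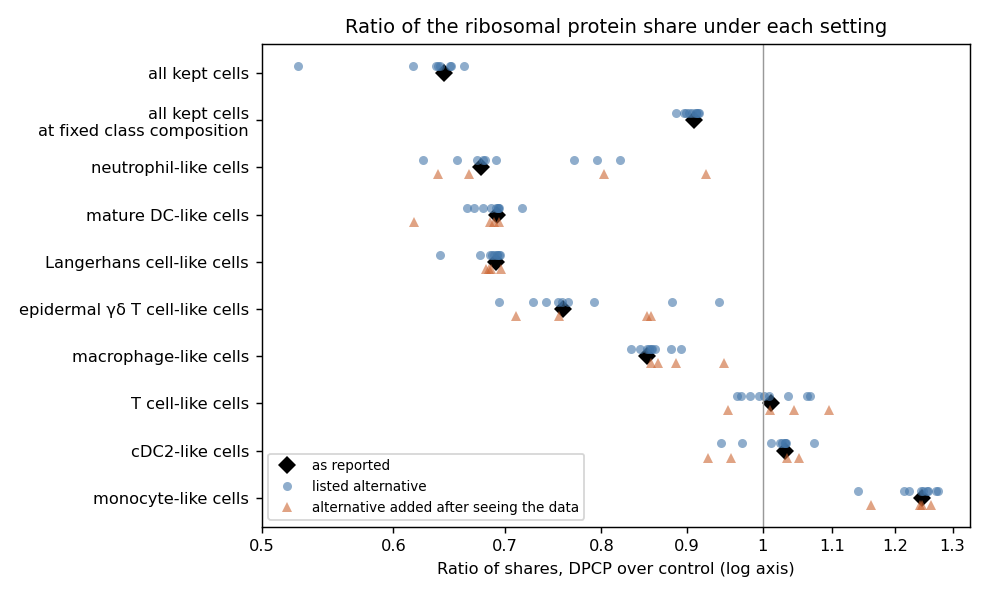
Ratio of the ribosomal protein share in DPCP over control cells (x axis, log scale) for all kept cells, for fixed class weights and for 8 classes (y axis). Diamonds are the values reported, blue circles the listed alternatives and orange triangles those added after seeing the data. Values stay below 1 for neutrophil-like, mature DC-like, Langerhans cell-like, macrophage-like and epidermal γδ T-like cells and above 1 for monocyte-like cells, while those of T cell-like and cDC2-like cells lie on both sides.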

How the data were processed

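The deposited values are UMI counts per gene and barcode, made per the file headers with Cell Ranger 7.0.0 on a mm10 reference and given without normalization; the submitters' processing notes name Cell Ranger 6.1.1 and Seurat 4.0.1. Each barcode's suffix gave its condition through the deposited aggregation table. A barcode was kept with 200 or more genes detected and no more than 10% of UMIs mitochondrial, and no doublets were removed. Counts were summed per class and condition. Shares have exact (Clopper-Pearson) intervals and ratios exact conditional binomial intervals at 95%; members and genes needed 50 summed UMIs in a comparison. A gene was called lower or higher when its ratio passed 1.5-fold and its interval excluded 1.

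Classes were gated by marker lists in 2 steps. Neutrophil-like cells needed a scaled score of 0.3 and a lead of 0.1. Others needed a mean z-score of 0.5, a lead of 0.25 and 3 detected markers. This gate rule was set after seeing the data. No class had among its 10 leading genes a marker that is only on other classes' lists. Cd3e and Cd3g, among the leading genes of epidermal γδ T-like cells, are on the list of that class and on the T cell list. Within 0.05 of a gate's edge lay 30 of 537 control and 9 of 230 DPCP macrophage-like cells, and 18 of 231 and 28 of 641 monocyte-like cells. Clusters (scanpy 1.11.5, leidenalg 0.10.2, resolution 1, 2000 variable genes without ribosomal protein genes, 30 components, 15 neighbours) served as checks. TMM factors came from edgeR 4.0.16 in R 4.3.3. Members, lists and tests were chosen with earlier results of these data known. The text names the 6 most abundant members, the 4 highest and 4 lowest ratios per class, the 6 members whose share varies most over classes, and the paralogs; Rps27, Rpsa and the listed genes of other groups with values were added after seeing theirs where outside that rule. Intervals and calls were tested on simulated counts with 200 changed genes. Those counts held counting error only, so the check could not cover spread between cells or samples. In the annotation, 33 members overlap another gene on the same strand, and transcripts of pseudogenes or near-identical copies may share reads with them, so single members remain uncertain to that extent. Gene positions are from GENCODE M21 on GRCm38. A few genes that these rules would name are not reported here.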

Additional observations from a re-analysis of the deposited data

Results flagged for a closer look

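The share of ribosomal protein UMIs went in opposite directions in different classes of the same 2 samples. It was higher in DPCP monocyte-like cells, with a ratio of 1.25, and lower in neutrophil-like (0.677), mature DC-like (0.693), Langerhans cell-like (0.691) and epidermal γδ T-like cells (0.759). The neutrophil-like ratio rested on few control cells and was 0.924 within cluster 0. The epidermal γδ T-like ratio also depended on the setting. It was closer to 1 under the own-tag, doublet-score and S100a8 and S100a9 limits given above, and was 0.711 within cluster 7. With 1 sample per condition the difference between classes was not tested.

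Rps27l also differed in direction between classes. Its ratio was 0.739 in monocyte-like and 0.619 in macrophage-like cells, and 1.39 in mature DC-like, 1.92 in Langerhans cell-like and 1.37 in T cell-like cells. These differences were not tested.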

How the results depend on the processing

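The ratios of the ribosomal protein share kept their direction under every setting tried for all kept cells, fixed class weights, and neutrophil-like, monocyte-like, macrophage-like, mature DC-like, Langerhans cell-like and epidermal γδ T-like cells; those of T cell-like and cDC2-like cells did not. In the order all kept cells, fixed weights, neutrophil-like, monocyte-like, macrophage-like and T cell-like, ratios that left the main interval were as follows. With 500 genes as minimum and 5% mitochondrial UMIs as maximum they were 0.616, 0.899, 0.655, 1.26, 0.880 and 0.971. Without the 20 most abundant other genes they were 0.638, 0.887, 0.692, 1.22, 0.843 and 0.983, and as a mean over cells 0.526, 0.896, 0.770, 1.27, 0.894 and 0.995. Without the top 5% of doublet scores they were 0.640, 0.915, 0.821, 1.27, 0.856 and 1.06. With no filter they were 0.662, 0.915 and 0.625 for the first 3, 0.833 for macrophage-like and 1.04 for T cell-like cells. Without mitochondrial UMIs they were 0.637 and 0.907 for the first 2, 1.25 for monocyte-like, 0.858 for macrophage-like and 1.001 for T cell-like cells. With at least 80% own tag they were 0.649 and 0.912, 1.22 for monocyte-like and 1.07 for T cell-like cells, and with the 6 further ribosomal protein genes 0.650 and 0.912. Classes from clusters gave 0.903 with fixed weights, 0.795 for neutrophil-like, 1.14 for monocyte-like, 0.861 for macrophage-like and 0.965 for T cell-like cells.

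Settings added after seeing the data gave 0.666, 1.16, 0.887 and 0.953 for neutrophil-like, monocyte-like, macrophage-like and T cell-like cells of 2000 to 12000 UMIs, and 0.638, 1.26, 0.865 and 1.04 without cells above the 75th percentile of Malat1. The largest shared cluster gave 0.924 for neutrophil-like, 0.948 for macrophage-like and 1.096 for T cell-like cells, cells under the S100a8 and S100a9 limit 0.857 for macrophage-like, and leaving out cluster 12 gave 0.803 for neutrophil-like cells. cDC2-like ratios below 1 came from own tag (0.972), clusters (0.944), the depth range (0.957) and the largest cluster (0.927).

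Counts of members past 1.5-fold depended on scaling. TMM gave 34 lower in all kept cells (20.7% of all genes under the same setting), 0 in neutrophil-like (6.79%) and 11 in epidermal γδ T-like cells (9.19%), and 8 higher in monocyte-like cells (10.4%). Classes from clusters gave 11 lower in neutrophil-like (14.3% of all genes), 21 lower in epidermal γδ T-like (10.7%) and 1 higher in monocyte-like cells (8.17%). For epidermal γδ T-like cells the stricter filter gave 10 (8.39%), no mitochondrial UMIs 5 (7.95%) and no abundant genes 6 (8.49%). Under TMM, Rps19 (1.06) and Rps29 (1.01) in neutrophil-like and Rps9 (0.994) in macrophage-like cells changed side. The causes were not tested. No paired analysis was possible because each condition has 1 sample. Depth limits the neutrophil-like class most, with 123 control cells, and the 13931 ribosomal protein UMIs they hold.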
